A study of Mus musculus with 2 samples.

Results

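Retnlb, Ang4 and Itln1 encode 3 proteins that the secretory cells of the gut release against microbes and worms. They were taken by symbol from the 27998 genes of the matrix, and each symbol matched 1 gene. The study profiled the ileal epithelium of uninjured mice by droplet-based single-cell RNASeq (sc-RNASeq, 10x Single Cell 3′ v2), in which every captured mRNA molecule is counted once through its unique molecular identifier (UMI). One library was made from wild-type (WT) C57BL/6 mice and one from Tipe0-/- mice (genotype label TNFAIP8-/-, strain background C57BL/6), which lack TNFAIP8, also called TIPE0, in the whole animal. The mice were 8 weeks old and untreated. The methods speak of isolated enterocytes, whereas the treatment label calls the digested material enteroids, so whether the cells came straight from tissue or from culture is not settled by these sources. Cells of 3 mice were pooled for each genotype. The 3 genes were chosen with their levels in both libraries known, so every difference between the libraries is given as a description, with no test. With 1 library per genotype, the intervals cover counting error only, and a difference between genotypes cannot be told apart from a difference between these pools of mice or these preparations.

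Goblet cells fill the mucus layer with mucins and small secreted proteins, and Paneth cells at the crypt base discharge granules of defensins, lysozyme and other antimicrobial proteins. Retnlb encodes resistin-like molecule beta, a small cysteine-rich goblet cell protein that damages bacterial membranes and impairs the feeding of intestinal worms. Ang4 encodes angiogenin 4, a secreted ribonuclease of the RNase A family with bactericidal activity. Itln1 encodes intelectin 1, a calcium-dependent lectin that binds sugars found on microbial surfaces and not on mammalian cells. All 3 genes are known to be induced in the intestine during worm infection, when the type 2 cytokines IL-4 and IL-13 signal through STAT6 in epithelial cells, and the colonization of the gut by bacteria is also known to raise Retnlb and Ang4.

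In the GRCm38 (mm10) annotation of GENCODE, Retnlb (ENSMUSG00000022650) lay on the plus strand at chr16:48816856-48818892 in 4 exons, Ang4 (ENSMUSG00000060615) on the minus strand at chr14:51763878-51773590 in 2 exons, and Itln1 (ENSMUSG00000038209) on the minus strand at chr1:171518122-171535294 in up to 8 exons. The RefSeq promoter table (build GRCm38.p6) matched 2 of the 3 genes, Ang4 and Itln1. Their 250 bases upstream of the transcription start are shown because the 2 genes had closely similar profiles over the clusters. Those profiles include the contrast between libraries that was known when the genes were chosen. Both are printed 5′ to 3′ in the direction of the gene, from the minus strand of chr14:51773591-51773840 for Ang4 and of chr1:171535295-171535544 for Itln1, and capitals mark the motifs described next.
Ang4: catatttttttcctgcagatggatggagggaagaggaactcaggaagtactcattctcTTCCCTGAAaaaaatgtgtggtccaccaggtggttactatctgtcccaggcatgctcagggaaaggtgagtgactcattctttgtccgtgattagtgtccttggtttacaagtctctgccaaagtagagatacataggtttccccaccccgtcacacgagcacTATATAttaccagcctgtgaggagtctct
Itln1: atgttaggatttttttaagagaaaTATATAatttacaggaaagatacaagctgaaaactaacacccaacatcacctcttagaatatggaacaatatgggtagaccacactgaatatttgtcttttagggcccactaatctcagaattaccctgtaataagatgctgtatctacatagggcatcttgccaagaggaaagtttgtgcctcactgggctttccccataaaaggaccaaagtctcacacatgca
The capitals in the Ang4 sequence are 1 match to the STAT-type palindrome TTCNNNGAA, as TTCCCTGAA at 192 to 184 bases before the start, and 1 match to TATATA at 29 to 24 bases before it. The capitals in the Itln1 sequence are 1 match to TATATA at 226 to 221 bases before the start. Over 32851 windows of the same length in the table, on both strands, TTCNNNGAA was present in 7.02% and TATATA in 5.25%. Neither sequence held the STAT6-type spacing TTCNNNNGAA (present in 5.85% of windows), the E-box CAGCTG (13.0%), the forkhead-type TGTTTAC (3.17%), the CDX-type TTTATTG (4.20%) or TATAAA (12.4%). No 2 of these motifs overlapped in either sequence, and a match of letters is not a binding site.

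The WT library held 3402 cells and the Tipe0-/- library 2006, with medians of 7760 and 7307.5 UMIs per cell, and 9 cell barcodes occurred in both. Clusters were rebuilt without the 3 genes and named from marker lists, so the classes are "like" a cell type. Goblet-like cells (3 clusters) made up 21.9% of WT and 25.7% of Tipe0-/- cells, and Paneth-like cells (1 cluster) 8.29% and 6.93%. Mitochondrial genes took 6.59% and 8.56% of UMIs, lymphocyte-like cells 2.67% and 0.847% of cells, and tuft-like cells 4.56% and 2.44%, and the part of these shifts in the results was not tested. Tnfaip8 itself, whose counted 3′ end may lie outside the deleted part, had 9.76 UMIs per 1000000 UMIs of the library (CPM) for WT and 2.39 CPM for Tipe0-/-. Nnt, which C57BL/6J mice carry in a shortened form, had 12.2 and 41.1 CPM, and a difference in sub-strain cannot be told apart from genotype here.

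Over whole libraries, all 3 genes had fewer UMIs in Tipe0-/- cells, by very unequal amounts. Retnlb had 13987 UMIs in the WT library, 367 CPM with an exact 95% Poisson interval of 361 to 373, and 657 UMIs in the Tipe0-/- library, 27.5 CPM (25.4 to 29.7). That is a level 13.3-fold higher in WT, or a log2 ratio (Tipe0-/- over WT) of -3.74 with an exact binomial interval of -3.85 to -3.63. Ang4 had 86243 UMIs (2262 CPM) in WT and 18656 (781 CPM) in Tipe0-/-, a log2 ratio of -1.53 (-1.56 to -1.51). Itln1 had 86979 UMIs (2281 CPM) and 43825 (1834 CPM), a log2 ratio of -0.31 (-0.33 to -0.30). The WT library was therefore the higher one for each gene, with intervals that did not overlap.

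The median log2 ratio of the 11665 genes with at least 50 UMIs was 0.15, and read from it the ratios were -3.89 for Retnlb, -1.69 for Ang4 and -0.47 for Itln1. Of the 3 genes, 2 lay at least 2-fold below the median ratio, as did 3.22% of all genes compared (0.892% lay at least 2-fold above it, none of them a member), and since the genes were chosen on this contrast nothing is read from that count. From the lowest ratio upwards, Retnlb ranked 8, Ang4 146 and Itln1 1087 of 11665. Among the 1246 genes of at least 100 CPM in the higher library, their ranks were 2, 11 and 124. A whole library mixes cell classes, so fewer cells of a class and less RNA per cell cannot be told apart in these values. When the classes were given the same shares in both libraries, the log2 ratios were -3.91, -1.44 and -0.19, and the values within classes follow. Averaged over cells on the log-normalized scale, which adds 1 to the UMIs per 10000 of each cell, the ratio of Retnlb was -2.06. Without the 10 cells richest in it in each library, the ratio was -4.26. The cause of these moves was not tested.

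**Figure D1:**
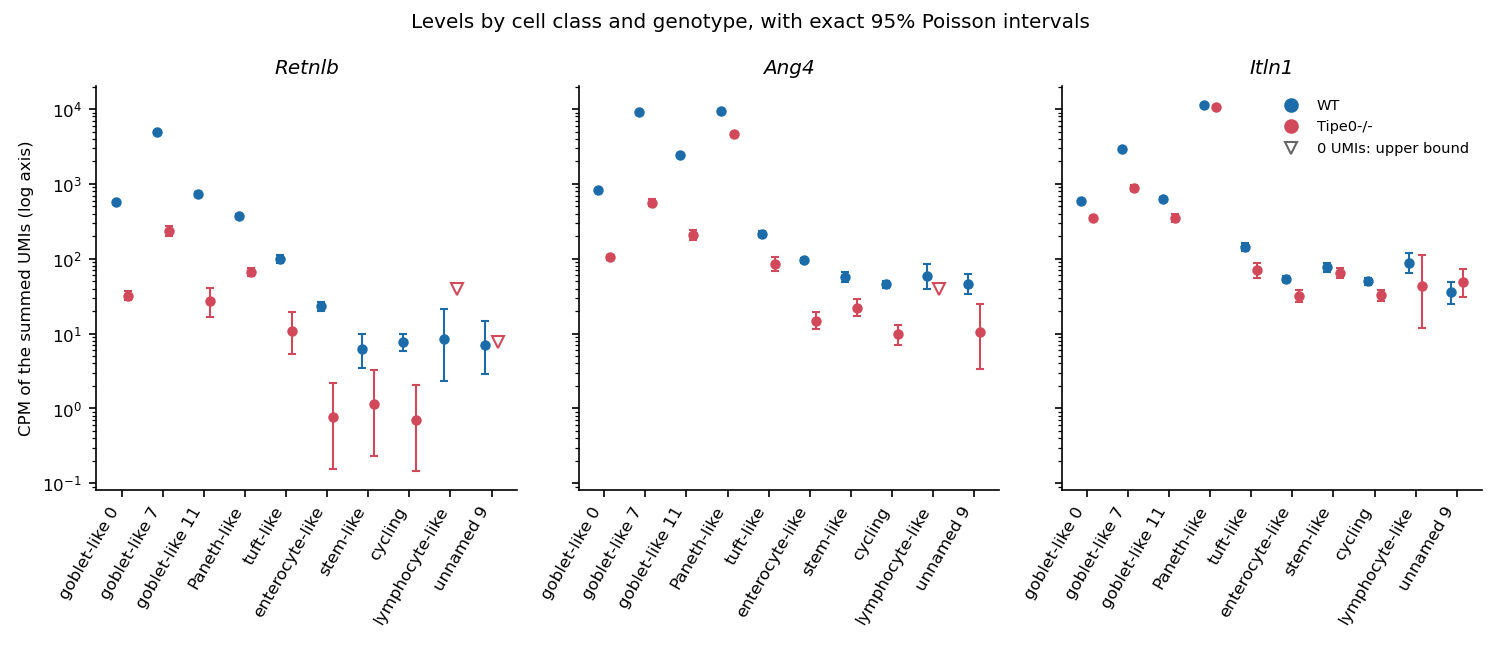
Levels of Retnlb, Ang4 and Itln1 (CPM of summed UMIs, log axis) in each cell class of the WT and Tipe0-/- libraries, with the 3 goblet-like clusters shown apart. Points are library sums, bars exact 95% Poisson intervals, and open triangles the upper bound where no UMI was counted. Retnlb was highest in goblet-like cluster 7 in both libraries and Itln1 in the Paneth-like cluster, and Retnlb in cluster 7 was at 4969 CPM in WT and 236 in Tipe0-/- cells.

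In goblet-like cells, the class for which Retnlb is best known, Retnlb stood at 1145 CPM in WT (746 cells, 10963 UMIs) and 50.4 CPM in Tipe0-/- (516 cells, 387 UMIs), a log2 ratio of -4.51 (-4.66 to -4.36). Ang4 stood at 2129 CPM and 159 CPM in the same cells, a log2 ratio of -3.74 (-3.83 to -3.66). Itln1 stood at 890 and 401 CPM, a log2 ratio of -1.15 (-1.21 to -1.09). The median over the 10045 genes compared in goblet-like cells was 0.09. All 3 genes were at least 2-fold below it, as were 1.58% of the genes compared (0.587% were as far above it), with ranks of 6, 8 and 115 from the lowest ratio. Without the 10 cells richest in Retnlb in each library, its log2 ratio in goblet-like cells was -5.42. Those cells held 57.1% of the Retnlb UMIs of Tipe0-/- goblet-like cells and 18.6% of those in WT. Leaving out a fixed number of cells thus removed unequal parts, and the lower ratio does not show a larger difference.

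The 3 goblet-like clusters differed widely in level but not in direction. Cluster 7 (196 WT and 129 Tipe0-/- cells) was led by Sval1, Zg16, Ido1, Fcgbp, Clca1 and Tff3, secreted products of mature goblet cells for the most part, and Retnlb was itself among its leading genes although it took no part in the clustering. Retnlb was at 4969 CPM (4843 to 5097) there in WT and at 236 CPM (202 to 275) in Tipe0-/-, a log2 ratio of -4.39. Cluster 0 (439 and 330 cells), led by Creb3l1, Spdef and Dll1, a transcription factor pair of goblet cell maturation and a Notch ligand of secretory precursors, had 572 and 32.2 CPM, a log2 ratio of -4.15. It made up 58.8% of WT and 64.0% of Tipe0-/- goblet-like cells. Cluster 7 held 5917 of the 10963 goblet-like Retnlb UMIs in WT and 167 of 387 in Tipe0-/-. Cluster 0 held 3944 and 198 of them. In WT its summed goblet markers were at 20141 CPM, against 159011 in cluster 7 and 21249 in Paneth-like cells. Its cycling markers were at 1854 CPM, against 272 in cluster 7. In Tipe0-/- its cycling markers were at 1769 CPM, against 189. Cluster 11 (111 and 57 cells) was led by Zg16, Ido1, Clca1 and Fcgbp, with higher enterocyte marker levels than the other 2. It had 740 and 26.9 CPM of Retnlb, a log2 ratio of -4.75. The Tipe0-/- value rests on 22 UMIs in 3 cells, with 12 of the UMIs in 1 cell. The summed enterocyte markers of cluster 11 were at 3515 CPM in WT, against 225 in cluster 7 and 189 in cluster 0. Its WT median depth was 12694 UMIs per cell, against 5155.5 in cluster 7 and 6559 in enterocyte-like cells. The part of droplets holding 2 cells in this cluster was not tested. The 3 ratios of Retnlb had overlapping intervals.

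Ang4, the ribonuclease, was most unequal between the libraries in cluster 7, at 9224 CPM (9053 to 9398) in WT and 565 CPM (511 to 624) in Tipe0-/- cells, a log2 ratio of -4.03 (-4.18 to -3.88). In cluster 11 it was at 2464 and 209 CPM (log2 ratio -3.56, -3.79 to -3.34), and in cluster 0 at 830 and 106 CPM (log2 ratio -2.97, -3.10 to -2.86). The intervals of these 3 ratios did not overlap. Itln1, the lectin, had the same order at smaller sizes for cluster 7, with 2937 and 883 CPM and a log2 ratio of -1.73 (-1.86 to -1.61). Its ratios in cluster 11 (624 and 348 CPM, -0.84, -1.04 to -0.65) and cluster 0 (593 and 353 CPM, -0.75, -0.83 to -0.67) overlapped. In cluster 11, however, a single Tipe0-/- cell carried 158 of the 285 Itln1 UMIs, and 1 cell carried 55 of the 171 Ang4 UMIs. The intervals do not cover such unevenness between cells. Summed goblet markers in cluster 7, from which the 3 genes are absent, were at 159011 CPM in WT and 151638 in Tipe0-/- cells (all 15 markers detected in both), and mitochondrial genes took 8.19% and 10.4% of its UMIs.

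In Paneth-like cells (282 WT and 139 Tipe0-/- cells) the order of the 3 genes between libraries was the same, and the differences were smaller. Itln1 was near level at 11496 CPM (11415 to 11578) in WT and 10761 (10656 to 10867) in Tipe0-/- cells, a log2 ratio of -0.10 (-0.11 to -0.08), and it came to 0.01 when each cell was thinned to 3000 UMIs. Ang4 was at 9555 CPM (9481 to 9629) and 4599 CPM (4531 to 4668), a 2.08-fold higher level in WT and a log2 ratio of -1.05 (-1.08 to -1.03). Retnlb was at 378 CPM (364 to 393) and 66.9 CPM (58.9 to 75.7), a log2 ratio of -2.50 (-2.69 to -2.31), and at -3.31 without the 10 Paneth-like cells of each library richest in it. Those 10 cells held 29.8% of the Retnlb UMIs of the class in WT and 62.8% in Tipe0-/-. In this class the median log2 ratio of the 6984 genes compared was 0.48, well above 0, so that the ratios read from it were -2.98, -1.54 and -0.58. Of the 3 genes, 2 were at least 2-fold below that median, as were 1.63% of the genes compared (0.444% were as far above it). The summed Paneth markers were at 214638 and 213342 CPM, with all 14 detected in both libraries, and the median depth was 20981.5 UMIs per cell in WT and 26111 in Tipe0-/-.

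**Figure D2:**
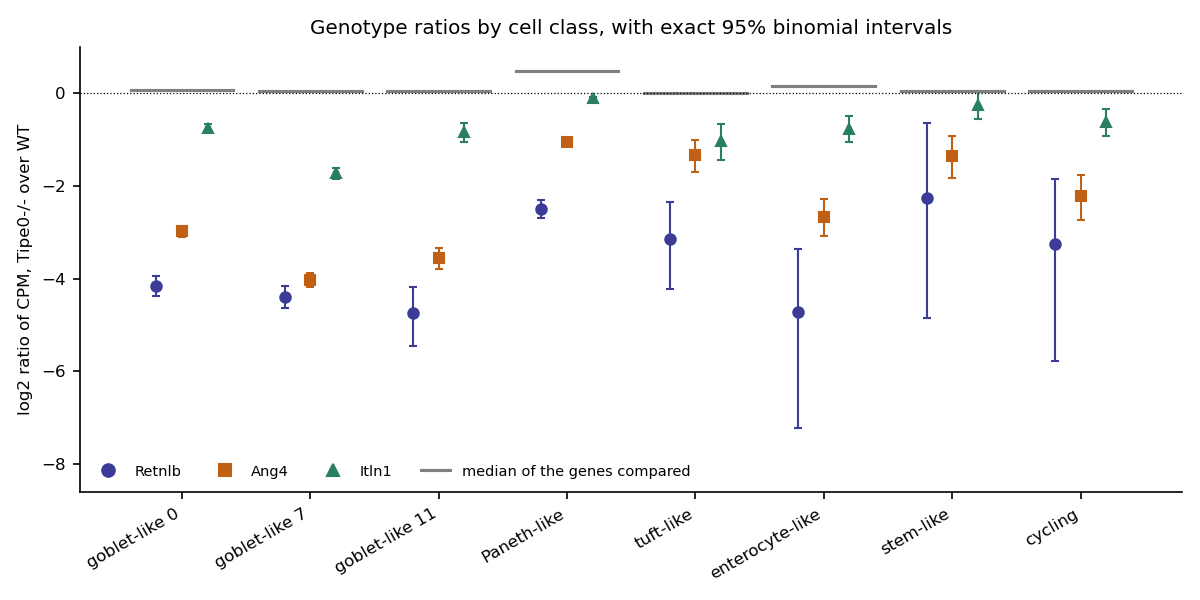
Log2 ratio of CPM (Tipe0-/- over WT) of each gene by cell class. Points are ratios of library sums, bars exact 95% binomial intervals, and grey lines the median ratio of all genes compared in the class. Retnlb lies lowest in each class shown, at -4.39 in goblet-like cluster 7, with intervals that overlap those of Ang4 there and in stem-like and cycling cells, and Itln1 in Paneth-like cells lies nearest 0 at -0.10.

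Within a library, the place of highest level differed from gene to gene. In WT cells Retnlb was highest in goblet-like cluster 7, 6.71-fold (6.30 to 7.17) above cluster 11 and 8.68-fold above cluster 0, followed in order by clusters 11 and 0, Paneth-like cells, tuft-like cells (99.8 CPM) and enterocyte-like cells (23.1 CPM). Ang4 in WT was almost level between Paneth-like cells and cluster 7, with a ratio of 1.04 (1.02 to 1.06), ahead of clusters 11 and 0. In Tipe0-/- cells the same ratio of Ang4 was 8.13 (7.37 to 9.01), so that Paneth-like cells held 92.1% of the Ang4 UMIs of that library and 74.3% of those of the WT library. Itln1 was highest in Paneth-like cells in both libraries, 3.91-fold above cluster 7 in WT and 12.2-fold in Tipe0-/-. Clusters 11 and 0 had an Itln1 ratio of 1.05 (0.978 to 1.13) in WT and 0.987 (0.868 to 1.12) in Tipe0-/-. The Tipe0-/- ratio rests largely on 1 cell of cluster 11, with 158 of its 285 Itln1 UMIs, so it does not show equal levels. For Retnlb, clusters 11 and 0 had a ratio of 0.852 (0.512 to 1.30) in Tipe0-/- cells, with 22 UMIs in 3 cells of cluster 11. Goblet-like cells as a whole had more Retnlb than Paneth-like cells in WT (1145 against 378 CPM) and less in Tipe0-/- (50.4 against 66.9 CPM). In Tipe0-/-, however, Paneth-like cells were at 0.283 (0.232 to 0.347) of the level in cluster 7. The 10 cells richest in Retnlb held 62.8% of its UMIs in Tipe0-/- Paneth-like cells and 57.1% in Tipe0-/- goblet-like cells.

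Classes that should lack these proteins also held some of their UMIs, at uneven levels. In enterocyte-like cells Retnlb was at 23.1 CPM in WT (198 UMIs in 962 cells) and 0.759 in Tipe0-/- (3 UMIs in 469 cells), Ang4 at 95.2 and 14.9, and Itln1 at 54.3 and 31.9. These levels were lower in the Tipe0-/- library, as were the genes' levels in the secretory classes. Retnlb in stem-like cells was at 6.14 and 1.13 CPM and in cycling cells at 7.70 and 0.699 CPM, each Tipe0-/- value resting on 3 UMIs, and the WT intervals of these classes (3.51 to 9.97 and 5.80 to 10.0), of lymphocyte-like cells (2.30 to 21.6) and of the unnamed cluster (2.86 to 14.6) overlapped. The WT interval of Retnlb in enterocyte-like cells, which ended at 26.6 CPM, overlapped that of lymphocyte-like cells and lay above the other three. Retnlb in tuft-like cells was higher again in WT, at 99.8 CPM (86.7 to 114), and stood at 10.8 CPM (5.39 to 19.3) in Tipe0-/-. In lymphocyte-like cells, 4 Retnlb UMIs were counted in 91 WT cells and 0 in 17 Tipe0-/- cells, where 3 counts would be 32.4 CPM, so no difference was detectable at this depth. The unnamed cluster 9 was the only class in which Itln1 had a ratio above 0, at 35.5 and 48.4 CPM with an interval of the log2 ratio from -0.38 to 1.24. Summed Paneth markers in enterocyte-like cells were at 836 CPM in WT and 518 in Tipe0-/-, and summed goblet markers at 2092 and 1274. Free RNA in the droplets was not measured, and its part in these values was not tested.

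Shares of cells with at least 1 UMI were compared after each cell had been thinned to 3000 UMIs, a depth that every cell reached. Of goblet-like cells, 54.6% (exact Clopper-Pearson interval 50.9 to 58.2) in WT and 6.78% (4.77 to 9.31) in Tipe0-/- held Retnlb, against 3.85% and 0.213% of enterocyte-like cells (median depths 6559 and 5733 UMIs, goblet-like 11156.5 and 11069.5). Unthinned, the goblet-like shares were 71.8% and 10.9%. Ang4 was held by 63.4% of WT goblet-like cells (80.8% unthinned) and by 103 of 516 Tipe0-/- goblet-like cells (36.4% unthinned), against 13.8% and 5.12% of enterocyte-like cells. Itln1 was held by 63.5% and 36.8% (84.3% and 60.9% unthinned), against 14.7% and 10.0%. Of Paneth-like cells, 46.1% and 7.91% held Retnlb (83.3% and 39.6% unthinned), 98.6% and 87.1% Ang4 (99.6% and 94.2%), and 100% and 98.6% Itln1 (100% and 99.3%). The share of Tipe0-/- Paneth-like cells with Retnlb (4.02 to 13.7) was higher than in enterocyte-like cells of that library (0.00540 to 1.18).

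The difference in cluster 7 lay both in how many cells held a gene and in how much they held. Scaled to 10000 UMIs per cell, the median WT cell had 25.5 Retnlb UMIs (10th percentile 1.43, 90th percentile 120), whereas 111 of 129 Tipe0-/- cells had none. Only 3 Tipe0-/- cells of cluster 7 reached the WT median for Retnlb, 2 reached that for Ang4 and 17 that for Itln1. A single Tipe0-/- cell carried 87 of the 167 Retnlb UMIs of the cluster, and the 10 richest cells of 129 carried 94.0%, against 34.0% in the 10 richest of 196 WT cells. For Ang4 the WT median was 45.7 and the Tipe0-/- median 0, and for Itln1 they were 17.6 and 2.09. In Paneth-like cells the median for Itln1 was 103 in WT and 108 in Tipe0-/-, with 73 of 139 Tipe0-/- cells at or above the WT median. For Ang4 the Paneth-like medians were 76.3 and 36.2, with 16 of 139 Tipe0-/- cells at or above the WT median.

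**Figure D3:**
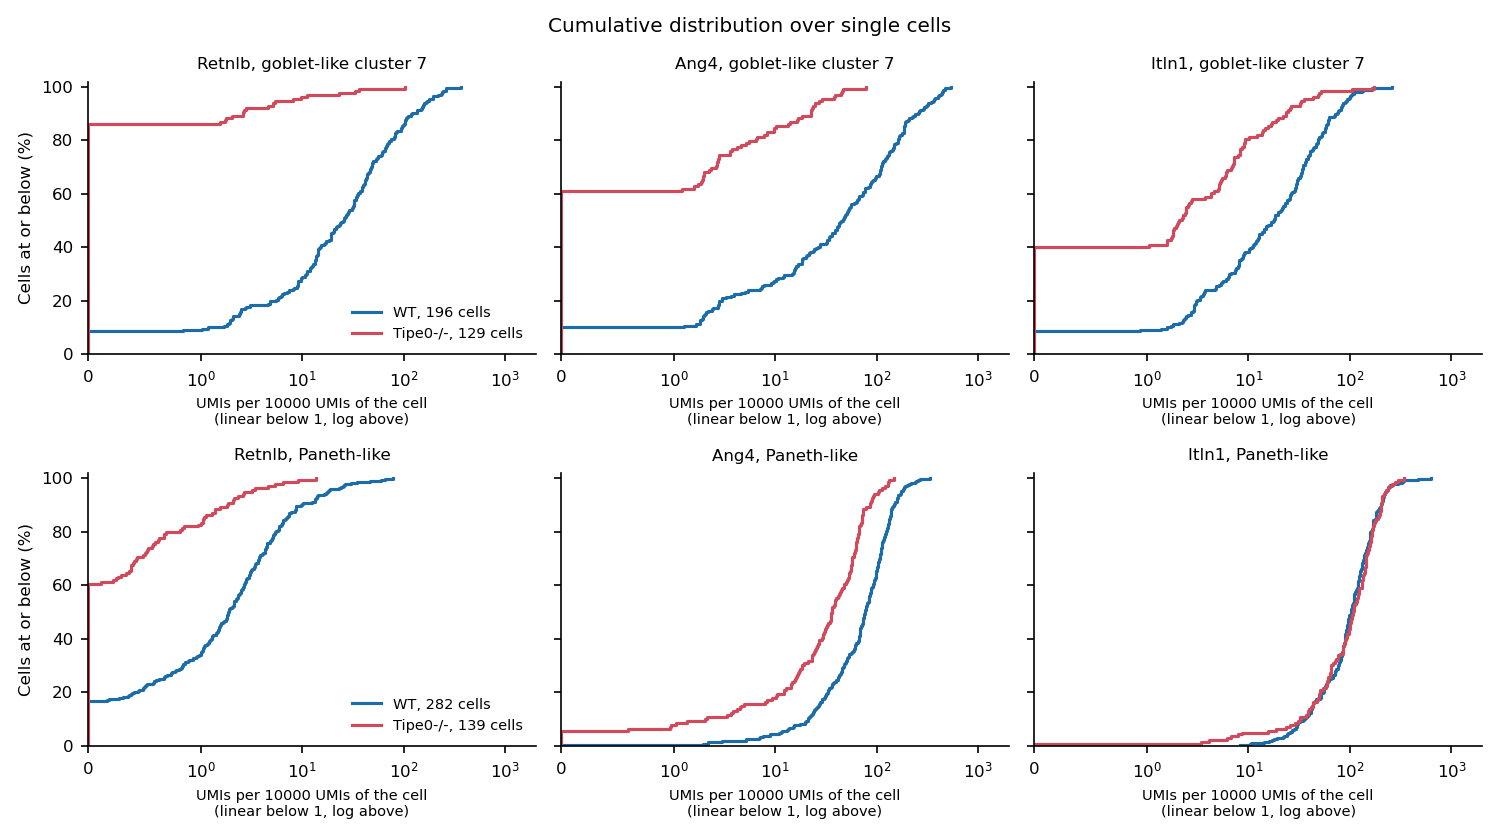
Cumulative share of cells (percent) by UMIs per 10000 UMIs of the cell (axis linear below 1 and log above) for each gene in goblet-like cluster 7 (top) and Paneth-like cells (bottom), WT and Tipe0-/-. In cluster 7, 111 of 129 Tipe0-/- cells lie at 0 for Retnlb, and the Paneth-like curves of Itln1 run together with medians of 103 and 108.

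The 3 genes occurred together in the same cells. In thinned cells of cluster 7, all 3 were found in 68.4% of WT and 7.75% of Tipe0-/- cells, and none of them in 3.57% and 37.2%. Among WT goblet-like cells with Ang4, 69.3% also held Retnlb, against 28.9% of those without Ang4. Among Tipe0-/- goblet-like cells these shares were 19.4% and 3.63%. The Spearman correlation over the 746 WT goblet-like cells was 0.58 for Ang4 and Retnlb, 0.61 for Itln1 and Retnlb and 0.58 for Ang4 and Itln1, and over the 516 Tipe0-/- cells it was 0.26, 0.30 and 0.37. In WT Paneth-like cells Ang4 and Itln1 had a correlation of 0.49, while Retnlb was near 0.05 with each of them. These are descriptions over cells that share a library, and counts of a few UMIs lower such values.

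Over the 25 combinations of cluster and library with at least 20 cells, which share 2 libraries, the profile of Retnlb on the log2(CPM + 1) scale was most like that of Ang4 among 7958 genes with at least 500 UMIs (Pearson's r = 0.92). Next came Mptx1, a secreted pentraxin (0.88), Spink4, a goblet cell product (0.88), Ern2, the stress sensor of the mucus-secreting endoplasmic reticulum (0.88), and Hpd, an enzyme of tyrosine breakdown (0.87). Ang4 was most like the alpha-defensin Defa24 (0.94), the lipase-related Pnliprp2 (0.94), Itln1 (0.94), Retnlb (0.92) and Defa17 (0.91). Itln1 was most like Defa24 (0.99), Defa17 (0.95), the defensin-processing protease Mmp7 (0.94), Nupr1 (0.94) and Pnliprp2 (0.94). The log2 ratios of these neighbours over whole libraries were nearer 0 than that of Retnlb, at -1.68 for Mptx1, -1.15 for Pnliprp2, -0.67 for Defa24, -0.66 for Nupr1, -0.28 for Spink4, -0.23 for Ern2 and -0.14 for Hpd.

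Among epithelial genes known to be induced by type 2 cytokines, 9 of 14 listed had at least 50 UMIs in whole libraries. Of these, 6 were at least 2-fold below the median ratio of all genes and none as far above it. Of all genes compared, 3.22% were as far below and 0.892% as far above. The median log2 ratio of the 9 was -1.70, against 0.15 for all genes compared. This list and those below were chosen with earlier results of these data known, so nothing is read from their counts or medians. Pla2g4c, a phospholipase, was at 192 CPM in WT and 13.7 in Tipe0-/- (log2 ratio -3.81), and Sprr2a3, a small proline-rich protein, at 366 and 43.0 (-3.09), with Sprr2a1 at 3.59 and 0.879 CPM. The gasdermins Gsdmc4 (300 and 84.3 CPM, -1.83), Gsdmc2 (175 and 53.6, -1.70) and Gsdmc3 (65.8 and 25.9, -1.34) were lower as well. Clca1 (-0.66), Sprr1a (-0.74) and Wars (-0.18) were within 2-fold of the median ratio, and Sprr2a2, Gsdmc, Muc5ac, Chil3 and Chil4 had too few UMIs to compare. In goblet-like cells 7 of 8 compared genes of this list were at least 2-fold below the class median (1.58% of all genes compared in that class), and in Paneth-like cells 5 of 6 (1.63%).

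Of the cytokines, receptors and signalling genes of the type 2 pathway, 9 of 18 could be compared over whole libraries, with a median of -0.22. At least 2-fold below the median ratio were 2 of them (3.22% of all genes compared), and none was as far above it (0.892%). Socs1, an inhibitor that cytokine signalling induces, was at 14.3 CPM in WT and 4.60 in Tipe0-/- (-1.63), and Il2rg, a receptor chain also used by lymphocytes, at 1.15 and 0.251 (-2.10), with lymphocyte markers at 155 and 41.6 CPM summed over whole libraries. Tslp, an epithelial cytokine upstream of type 2 responses, had 66 UMIs in WT and 24 in Tipe0-/- (log2 ratio of CPM -0.77, -1.52 to -0.09), the largest ratio of those within 2-fold of the median. The receptor chains Il4ra (22.0 and 17.7 CPM, -0.31) and Il13ra1 (47.7 and 41.0, -0.22) and the transcription factor Stat6 (26.4 and 32.5, 0.30) were within 2-fold as well. The cytokine genes Il4, Il5, Il9 and Il13 had from 0 to 1 UMI per library. Il25, the tuft cell cytokine upstream of type 2 responses, had 8 UMIs in WT and 2 in Tipe0-/-.

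Over whole libraries, 1 of 10 goblet products and 2 of 18 Paneth products compared lay 2-fold or more from the median ratio, and Itln1 did not. Of all genes compared over whole libraries, 3.22% lay as far below the median ratio and 0.892% as far above. Counts within the secretory classes are given beside those of whole libraries. Of the goblet secreted products, 10 of 12 were compared, none was at least 2-fold below the median ratio of all genes in whole libraries, and Zg16, a lectin-like mucus protein, was above it at 1418 CPM in WT and 3470 in Tipe0-/- (1.29). The list's median was -0.06, with Muc2, the main gel-forming mucin, at 1094 and 1386 CPM (0.34), Fcgbp at 857 and 1477 (0.78), Reg4 at 201 and 126 (-0.68) and Clca1 at 683 and 432 (-0.66). Within goblet-like cells, 2 of 10 compared were at least 2-fold below the class median, against 1.58% of all genes compared there. They were Clca1 (2476 and 1269 CPM, -0.96) and Reg4 (161 and 83.3, -0.95). In Paneth-like cells 3 of 10 were, Clca1 (-2.40), Spink4 (-0.54) and Reg4 (-0.55), against 1.63% of all genes. The median of that class was 0.48, so Spink4 and Reg4 passed the line at levels only 1.45-fold and 1.47-fold higher in WT. Of the Paneth secreted products, 18 of 19 were compared and 2 were at least 2-fold below the median ratio, Mptx1 (20.5 and 6.36 CPM, -1.68) and the bactericidal lectin Reg3g (21844 and 11738, -0.90), with none above it and a median of -0.46. The largest ratios among the others were those of Lyz2 (2.47 and 4.31 CPM, 0.81), Defa3 (249 and 151, -0.72), Reg3b (40346 and 25185, -0.68) and Defa17 (1314 and 817, -0.68). In goblet-like cells 4 of 16 compared genes of this list were at least 2-fold below the class median, against 1.58% of all genes. They were Mptx1 (-2.41), Defa24 (-1.26), Defa17 (-1.20) and Defa26 (-1.36), and summed Paneth markers there were at 1621 and 1108 CPM. In Paneth-like cells 2 of 17 were, Reg3g (-0.87) and Defa3 (-0.55), against 1.63% of all genes, at levels 1.83-fold and 1.46-fold higher in WT. Mptx1 was at -0.25 (-0.76 to 0.22) there. Of its 780 WT UMIs, 639 were in goblet-like and 114 in Paneth-like cells. Of the 832875 WT UMIs of Reg3g, 43084 were in Paneth-like cells.

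The 10 secretory transcription factors, which drive goblet and Paneth cell formation, were all compared and none was 2-fold from the median ratio in either direction, with a median of 0.16. Atoh1, the factor that commits cells to the secretory lineage, was at 25.9 and 38.5 CPM (0.57), Foxa2 at 5.35 and 10.5 (0.98), Sox9 at 85.0 and 124 (0.55) and Spdef at 19.4 and 15.6 (-0.32). Of the microbial sensing genes, 8 of 12 were compared, with a median of -0.20. Tlr4 at 1.52 and 0.670 CPM (-1.15) was below the 2-fold line (3.22% of all genes compared), and none was above it (0.892%). The largest ratios among the others were those of the receptors Tlr2 (5.19 and 3.68 CPM, -0.49) and Nod1 (7.50 and 5.61, -0.42), of the adaptor Ticam1 (10.4 and 8.62, -0.27) and of Il17ra (10.4 and 9.54, -0.12), each below the median ratio of all genes.

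**Figure D4:**
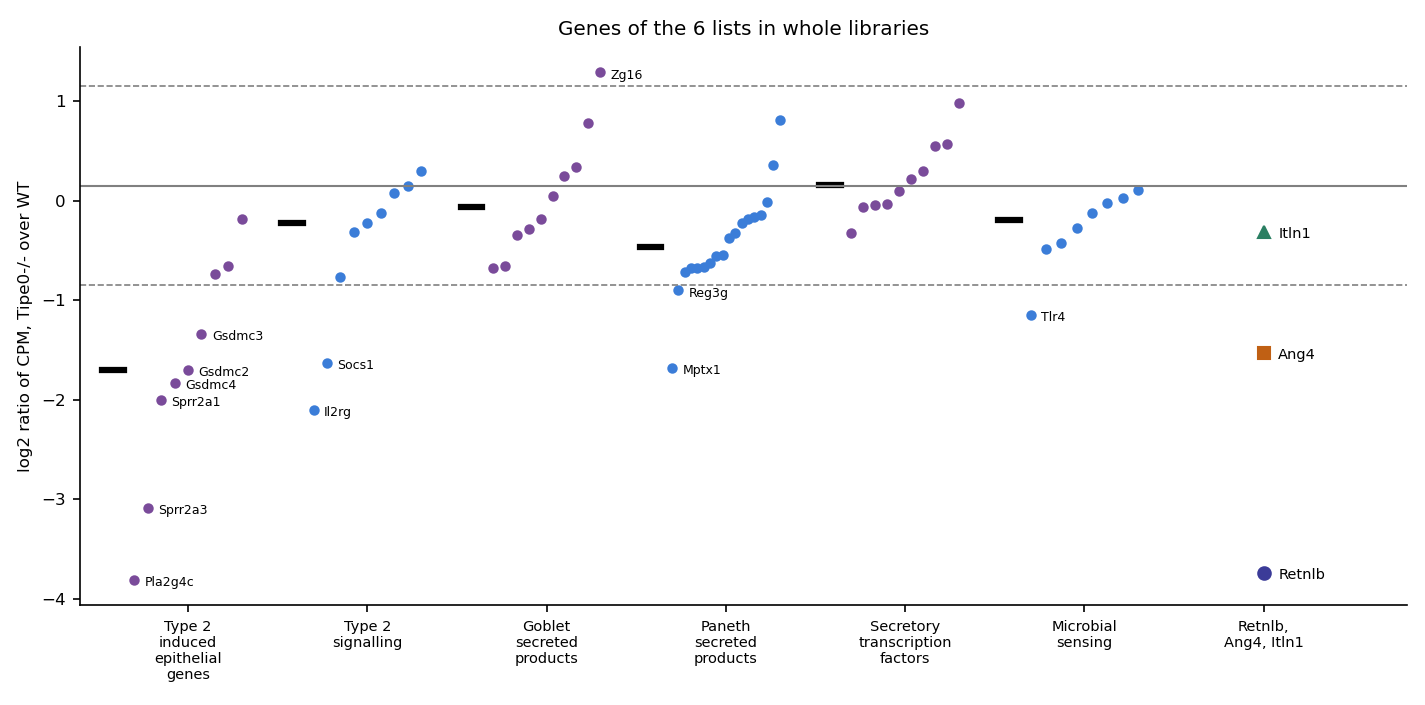
Log2 ratio of CPM (Tipe0-/- over WT) over whole libraries of each compared gene in 6 lists and of the 3 genes (right). Short black bars at the left of each column are list medians, the grey line is the median ratio of all genes (0.15), and dashed lines are 2-fold from it. Pla2g4c at -3.81 lies nearest to Retnlb at -3.74, and genes past a dashed line are named.

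Most relatives of Retnlb and Ang4 had few UMIs, with the exception of Ang and Rnase4, and no relative of Itln1 was measured here. Retnla, Retnlg and Retn had 4, 4 and 2 UMIs in WT and 0, 0 and 1 in Tipe0-/- cells, and none of the 666 windows of 31 bases in the Retnlb transcript occurred in a transcript of another gene. Ang4 shared 94 of 679 such windows, mostly with Ang5, Ang2 and Ang6, which had 15, 0 and 9 UMIs in WT and 3, 0 and 0 in Tipe0-/-. Ang, the other expressed angiogenin, was at 33.1 CPM in WT and 29.2 in Tipe0-/-, where Retnlb was at 27.5 (log2 ratio -0.18, -0.32 to -0.05), and at 52.7 and 39.0 CPM in goblet-like cells (-0.43). Rnase4, a ribonuclease of the same family, was at 41.7 and 63.6 CPM, the higher value in Tipe0-/-. Itln1 shared 43 of 1132 windows, all with Gm9765. Reads that match several genes alike are left out by Cell Ranger, so such windows would lower a count and not move it to a relative.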

How the data were processed

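Ileal epithelial cells of 3 mice per genotype were pooled and sequenced as 1 library per genotype. The authors aligned reads to mm10 and made UMI counts per gene and cell with Cell Ranger 2.1.0, and the deposited values are raw counts. The files precede the aggregation step in which depths were equalized. The methods name DNase I and Dispase on enterocytes, the labels Collagenase and Dispase on enteroids, and which applies is not settled. No other column of samples was left out.

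The members, gene lists, markers and naming rules were chosen with earlier results of these data known, and the naming rules had been changed after values were seen. Clusters came from Seurat 5.3.0 (R 4.3.3) on log-normalized values, with 14 principal components of genes variable by mean and dispersion and a resolution of 0.8. Of 582 variable genes 531 were used, since 117 genes of the study's genotype comparison and the 3 members were left out. A cluster was named for the class whose markers had the highest mean z-score, if at least 3 markers were found in at least 10% of its cells and at 1.5 times the share elsewhere. Scrublet in Scanpy 1.11.5 called 15 WT (0.441%) and 3 Tipe0-/- cells (0.150%) as doublets, too few to have worked. The reported values use every cell, and an alternative leaves out the 5% with the highest scores.

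UMIs were summed per class and library and given per 1000000 (CPM) with exact 95% Poisson intervals. Log2 ratios had 0.5 added to each sum. Their intervals come from the exact binomial distribution, and those of shares are Clopper-Pearson. Thinning to 3000 UMIs drew UMIs at random without replacement (Python 3.11.15, numpy 2.4.6). Genes were compared where the 2 libraries held at least 50 of their UMIs in sum. Ratios and intervals were tested on simulated data. Named genes were the members and their relatives, the 5 genes most like each member, and, from each list, those past 2-fold over whole libraries and up to 4 of the largest ratios among the rest. Listed genes past 2-fold within goblet-like or Paneth-like cells, and those with too few UMIs, were named after their values were seen. Promoters come from RefSeq and transcripts from GENCODE.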

Additional observations from a re-analysis of the deposited data

How the results depend on the processing

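Of 99 alternative values of ratios and shares, 45 stayed within the counting interval of the reported value, 53 moved beyond it and 1 changed sign. Of 18 alternative counts of genes, 2 stayed within 1.5 times the reported count and 16 did not. No paired analysis was possible because each genotype has 1 library, so the spread between mice and between preparations is unknown and bounds every statement above. Log2 ratios are given in the order Retnlb, Ang4, Itln1. Without mitochondrial and the 20 most abundant genes in the totals, Ang4 was at -1.59 and Itln1 at -0.37 over whole libraries, and the 3 genes at -2.82, -1.38 and -0.42 in Paneth-like cells. Scaled to the median ratio, they were at -3.89, -1.69 and -0.47 over whole libraries, Ang4 and Itln1 at -3.84 and -1.24 in goblet-like cells, and the 3 at -2.98, -1.54 and -0.58 in Paneth-like cells. Thinned to 3000 UMIs, they were at -4.18, -1.99 and -0.38 over whole libraries and at -3.05, -0.99 and 0.01 in Paneth-like cells, where Itln1 changed sign. Without the 10 richest cells per library, they were at -4.26, -1.69 and -0.41 (whole), -5.42, -3.99 and -1.57 (goblet-like) and -3.31, -1.09 and -0.14 (Paneth-like). For Retnlb in whole libraries, these cells held 40.9% of the Tipe0-/- UMIs and 14.6% of the WT UMIs. Without the 5% highest doublet scores, they were at -3.61, -1.44 and -0.24 (whole), -4.35, -3.66 and -1.02 (goblet-like), and Ang4 and Itln1 at -1.01 and -0.04 (Paneth-like). Averaged on the log-normalized scale, whole libraries gave -2.06, -1.76 and -0.37, and with the same makeup of classes -3.91, -1.44 and -0.19. Other clusterings moved Itln1 in goblet-like cells to -1.08 (all variable genes) and -1.07 (resolution 1.2), and the vst genes moved Ang4 in goblet-like cells to -3.65 and Ang4 and Itln1 in Paneth-like cells to -1.03 and -0.07. Of 2 alternatives chosen after the data were seen, leaving out the shared barcodes moved no value beyond its interval, and leaving out the cluster led by Creb3l1 and Spdef moved Ang4 and Itln1 in goblet-like cells to -3.87 and -1.47. The cause of these moves was not tested. The difference in the share of cells with a UMI, Tipe0-/- minus WT, was -61.0 percentage points for Retnlb in goblet-like cells and -5.40 for Ang4 in Paneth-like cells with all UMIs. With at least 2 UMIs it was -38.9 for Retnlb and -38.1 for Ang4 in goblet-like cells and -23.4 for Retnlb in Paneth-like cells. Genes at least 2-fold lower and higher than the median ratio numbered 376 and 104 over whole libraries, 159 and 59 in goblet-like and 114 and 31 in Paneth-like cells. With at least 20 UMIs they numbered 598 and 222, 278 and 153, and 254 and 145, and with at least 200 UMIs 175 and 40, 72 and 13, and 32 and 1, where fewer genes are compared. With the fold read from 0, 178 were higher over whole libraries and 91 in goblet-like cells, and 36 were lower and 486 higher in Paneth-like cells.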
